A study of Mus musculus with 6 samples.

Results

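The genes described here encode antioxidant defence and the supply of NADPH, the reducing power that this defence spends. The 33 listed genes were chosen for their function, with earlier results of these data known. They fall into 6 subgroups: the pentose phosphate pathway, other NADPH sources, the glutathione system, the thioredoxin system, superoxide dismutases with catalase, and the NRF2 regulators with their marker targets. A gene was measured by the brightest of its probe sets that carry its symbol alone, and 29 of the 33 had one, out of 18193 genes measured in this way. Of these 29, 26 passed the filter on mean signal and were tested, while Slc7a11, Srxn1 and Hmox1 lay at or near the lowest value of the arrays. Prdx1 was measured only by probe sets that carry a second symbol, and G6pdx, Prdx5 and Prdx6 are not analysed here.

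Cells remove hydrogen peroxide through a pair of parallel thiol systems. In the glutathione system, glutathione peroxidases and transferases use up reduced glutathione and glutathione reductase restores it. In the thioredoxin system, peroxiredoxins are reduced by thioredoxin, and thioredoxin by its reductase. Both reductases draw electrons from NADPH, which the oxidative arm of the pentose phosphate pathway, isocitrate dehydrogenase and malic enzyme regenerate. The transcription factor NRF2, encoded by Nfe2l2 and held in check by Keap1, induces many of these genes under oxidative stress, and blood stem cells are known to be sensitive to such stress.

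RNA came from sorted LSK cells, named for their lack of lineage markers and their Sca-1 and c-Kit (the bone marrow fraction with stem cells and multipotent progenitors), of F1 mice from C57BL/6 and FVB/n parents. The 3 Ercc1-deficient samples (genotype -/d) carried 1 knockout and 1 truncated allele of Ercc1, a repair endonuclease subunit, and each had an Ercc1-proficient litter mate, +/+ in litters 1 and 2 and +/d in litter 3. Litter 1 was 22 weeks old and litters 2 and 3 were 20 weeks old, and no treatment is named. Whether a sample was 1 mouse or a pool is not stated, and a p-value here covers the spread among these 6 samples, which may be technical. The design sets each deficient mouse against its litter mate, to see what loss of Ercc1 function does to expression in LSK cells.

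Each of the 6 arrays gave a MAS5 signal, a linear intensity with a lowest value (floor) of 30, for 45037 probe sets, and between 52.3% and 58.6% of them lay at the floor. The small number of arrays limits the precision of every value below. Ercc1 itself, by its brightest probe set, lay between 34.5 and 79.9 in deficient and between 128 and 244 in proficient samples, and its log2 difference was -1.36 ± 0.27 (SE; limma, adjusted p = 0.0138); whether the probes lie within the truncated part is not stated. Of 10 markers of LSK cells and progenitors 8 were measured and none was at the floor on all arrays, Kit lying between 92.2 and 231; Ly6a, which encodes Sca-1, is not analysed here. Markers of mature lineages were not uniformly absent: 2 of 11 granulocyte (Itgam and Mmp8), 2 of 10 erythroid (Hba-a1 and Alas2), 3 of 10 B and T cell (Cd79a, Cd3g and Cd4) and 2 of 7 macrophage markers (C1qa and Marco) were at the floor on every array, while Cd79b lay between 99.5 and 230.2, Car1 between 264 and 2374 and S100a8 between 182 and 25656. Because RNA of a mixed population was measured, fewer cells of a type and less RNA per cell cannot be told apart.

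The antioxidant response element, the site NRF2 binds, has the core TGACNNNGC. Promoter windows of 300 bases, from 250 before to 50 after a RefSeq gene start (GRCm38.p6), were searched for it on either strand; 29 of the 33 listed genes had a window (all but Gsr, Gclc, Hmox1 and Prdx6). The core was found for 10 of these 29, namely G6pdx, Pgd, Me1, Gclm, Mgst1, Txnrd1, Srxn1, Prdx1, Sod1 and Nfe2l2, and for 14% of all genes with a window. The match of Pgd lay in the window of a second, downstream start. The E-box CACGTG was found for 1 of the 29, Prdx4, and for 8.09% of all genes, and no member held both. Shown are the windows of the farthest upstream start of 5 genes that the results below turn on, with matches of TGACNNNGC or its reverse complement in capitals. Mgst1 and Pgd had higher signals in deficient cells of all 3 litters, Txnip lower ones, Mgst2 passed the test, and Me1 was near the floor although its window holds the core.

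Pgd (chr4:149166656-149166955, minus strand): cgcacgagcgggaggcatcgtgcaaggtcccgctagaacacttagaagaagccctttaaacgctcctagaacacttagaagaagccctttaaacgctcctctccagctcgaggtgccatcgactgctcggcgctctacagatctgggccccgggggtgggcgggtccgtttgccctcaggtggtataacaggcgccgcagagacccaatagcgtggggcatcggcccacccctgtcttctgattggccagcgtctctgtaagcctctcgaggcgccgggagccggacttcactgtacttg
Mgst1 (chr6:138140277-138140576, plus strand): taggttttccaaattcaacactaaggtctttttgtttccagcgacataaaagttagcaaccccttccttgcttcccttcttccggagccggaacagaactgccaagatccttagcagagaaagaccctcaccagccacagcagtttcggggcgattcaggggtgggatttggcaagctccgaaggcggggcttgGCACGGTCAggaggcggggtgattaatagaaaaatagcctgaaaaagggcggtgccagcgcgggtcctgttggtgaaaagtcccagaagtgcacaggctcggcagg
Mgst2 (chr3:51660929-51661228, plus strand): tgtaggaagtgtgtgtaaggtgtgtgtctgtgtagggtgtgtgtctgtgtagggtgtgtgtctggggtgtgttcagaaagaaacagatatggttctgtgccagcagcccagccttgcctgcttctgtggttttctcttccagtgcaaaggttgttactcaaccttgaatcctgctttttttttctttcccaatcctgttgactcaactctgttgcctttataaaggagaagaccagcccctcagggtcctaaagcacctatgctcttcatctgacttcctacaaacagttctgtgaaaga
Me1 (chr9:86695865-86696164, minus strand): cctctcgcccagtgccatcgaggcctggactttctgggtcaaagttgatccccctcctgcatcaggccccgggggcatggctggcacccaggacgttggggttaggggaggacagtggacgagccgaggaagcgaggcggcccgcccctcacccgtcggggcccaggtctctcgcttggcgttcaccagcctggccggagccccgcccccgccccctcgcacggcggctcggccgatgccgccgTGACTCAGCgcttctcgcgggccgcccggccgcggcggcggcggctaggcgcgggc
Txnip (chr3:96557707-96558006, plus strand): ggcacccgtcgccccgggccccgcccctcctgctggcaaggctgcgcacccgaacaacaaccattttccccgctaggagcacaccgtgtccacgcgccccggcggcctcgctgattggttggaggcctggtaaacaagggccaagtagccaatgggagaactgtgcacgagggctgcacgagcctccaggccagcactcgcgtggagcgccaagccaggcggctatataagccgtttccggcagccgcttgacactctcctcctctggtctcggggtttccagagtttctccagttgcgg

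In these windows the core is present once in Mgst1 and once in Me1, and absent from Pgd, Mgst2 and Txnip. Across the members with both a window and a probe set, 3 of 8 with the core in any window (Pgd, Mgst1 and Txnrd1) and 6 of 18 without it had higher signals in deficient cells of all 3 litters. A match is a description of the letters and does not show binding.

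Differences were taken within litters, as log2(signal + 30) of the deficient sample minus that of its litter mate, and tested with limma with litter as a block, the p-values being adjusted over all 22519 probe sets tested. One member, Gsr, passed at an adjusted p under 0.05, against 0.315% of all probe sets tested that passed as higher (0.514% with each gene taken by its brightest probe set), and no member passed as lower (0.52% of probe sets, 0.597% of genes). Of the 29 measured members 21 had a mean difference above 0 and 6 one below it, where 46% of all probe sets tested lay above 0. In each of the 3 litters the deficient sample was the brighter one for 10 members, namely Gsr, Pgd, Tkt, Idh1, Glrx, Gpx1, Gstm1, Mgst1, Txn1 and Txnrd1. That compares with 11.3% of all probe sets tested, or 12.6% when each gene is taken by its brightest probe set. By the brightest probe sets Txnip alone was lower in all 3 litters, as were 17% of probe sets and 17.9% of genes. At an unadjusted p under 0.05 there were 7 members higher (4.12% of probe sets, 4.69% of genes) and 1 lower (7.33% and 7.42%). By its brightest probe set, no member had all 3 deficient samples above or below all 3 proficient ones. That was the case for 2.3% of probe sets in the higher and 4.89% in the lower direction. Since the members were chosen with earlier results known, their counts beside these shares are descriptions and were not tested.

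**Figure D1:**
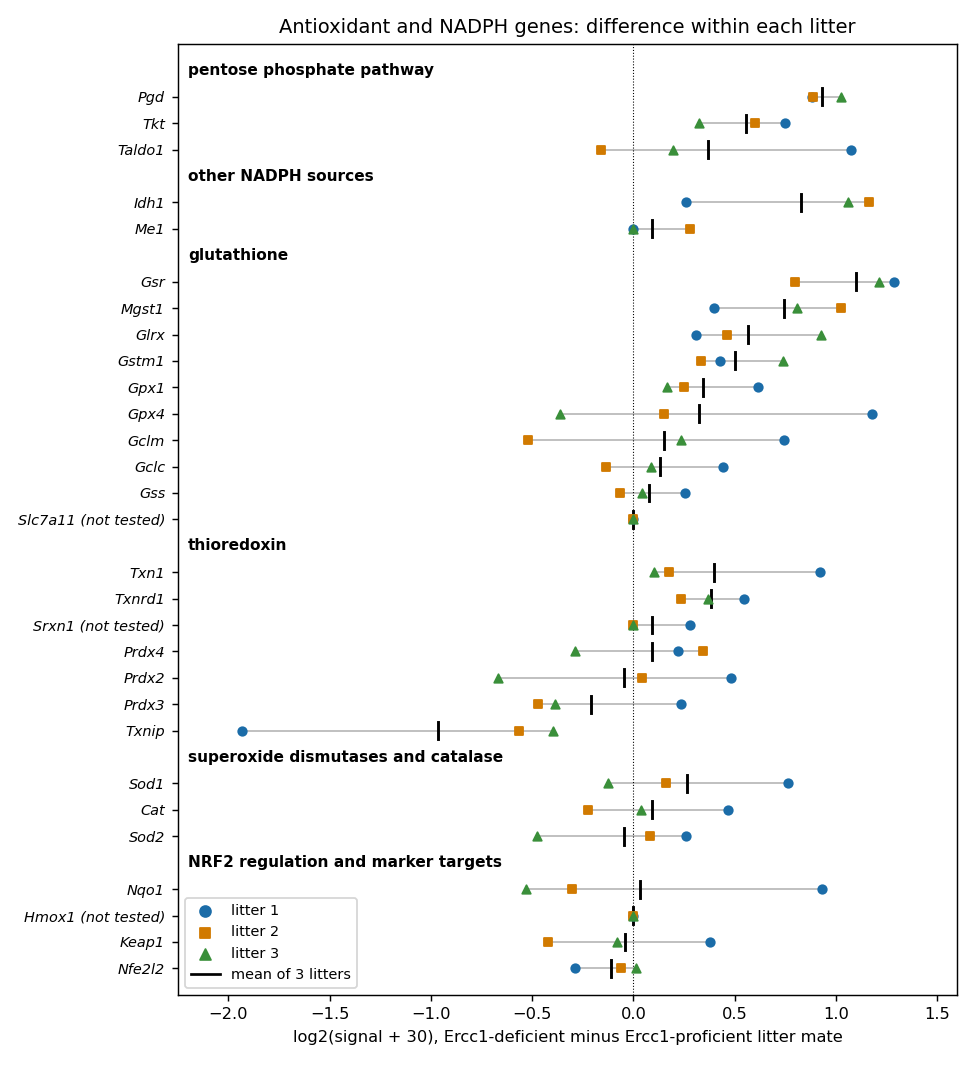
Log2 difference of signal + 30 (x axis) between the Ercc1-deficient sample and its litter mate for each of the 29 measured members (y axis, by subgroup), with 1 symbol per litter and a black bar at the mean of the 3 litters. Gsr and Pgd lie to the right of 0 in every litter with little spread, Txnip lies to the left in every litter, and most peroxiredoxins and the NRF2 group straddle 0.

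The median log2 difference of the 29 members was 0.13, and that of all probe sets tested was -0.03. The litter medians of the members were 0.43, 0.08 and 0.04 in litters 1, 2 and 3, so most of the shift lay in litter 1, and the median was 0.00 without that litter. Of the 6 subgroups, the median log2 difference was 0.56 for 3 pentose phosphate genes, 0.46 for 2 other NADPH sources, 0.33 for 10 glutathione genes, 0.09 for 7 thioredoxin genes, 0.09 for 3 superoxide dismutase and catalase genes and -0.02 for 4 genes of the NRF2 group. The median of the thioredoxin genes turned to -0.13 when a gene's probe sets were averaged and to -0.03 without litter 2. Within litters the pentose phosphate median exceeded the thioredoxin median by 0.60, 0.56 and 0.61, a mean gap of 0.59. Each of these medians is the value of 1 gene, and the gene changes between litters. In litter 1 the thioredoxin median was that of Srxn1, which was near the floor. The closeness of the 3 gaps is therefore no measure of precision. The litter medians themselves had an SD of 0.28 for the pentose phosphate and 0.29 for the thioredoxin genes. The glutathione median exceeded that of thioredoxin by 0.16, 0.16 and 0.49, and the pentose phosphate median exceeded that of glutathione by 0.45, 0.40 and 0.12. With averaged probe sets the pentose phosphate and glutathione medians were 0.37 and 0.34. These are descriptions of small groups of genes and were not tested.

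Markers of other cells moved with genotype and stand here for use with the values that follow. The summed signal of 11 measured mature granulocyte markers was 10.1, 5.49 and 4.70 times higher in the deficient than in the proficient sample of litters 1, 2 and 3; it ranged from 5929.9 to 88588 in deficient and from 587 to 18839 in proficient samples. Of these 11, 7 were higher in all 3 litters and 5 passed the test, Camp, Ngp, S100a8, S100a9 and Chil3, while Mmp8 and Itgam were at the floor on all arrays. The sum of 9 granulocyte-monocyte progenitor markers was 3.58, 2.05 and 1.70 times higher, from 14871 to 41858 against 4148 to 20746. The sum of 10 erythroid markers was 1.01, 0.77 and 0.73 times that of the litter mate, from 2851 to 5040 against 2834 to 6558, and none of them passed. Both granulocyte sums were lowest in litter 1. The sum of 8 LSK and progenitor markers was 0.743, 0.921 and 0.777 times that of the litter mate, and 2 of them, Flt3 and Procr, passed as lower. Of these 8, 5 were lower and 1, Gata2, was higher in all 3 litters. Gata2 measured 644, 529 and 761 against 499, 433 and 399 and did not pass. The sum of 10 B and T cell markers lay between 1014 and 1797 in deficient and between 605 and 1210 in proficient samples, that of 7 megakaryocyte markers between 1321 and 2983 against 625 and 2224, and that of 7 macrophage markers between 499 and 2058 against 424 and 806. In litters 1, 2 and 3 the B and T cell sum was 1.68, 1.68 and 1.36 times that of the litter mate. The ratios were 2.11, 1.34 and 1.05 for megakaryocyte and 1.18, 1.15 and 2.69 for macrophage markers. Of these lists only Selp, a megakaryocyte marker, passed, as higher (limma, adjusted p = 0.0163). Most of each deficient B and T cell sum was Nkg7 alone, at 594, 1211 and 1191 against 252, 653 and 721. Cd79b, of the same list, was higher in the deficient sample of litter 2 only. Lyz2 gave 1702 of the macrophage sum of 2058. The part of any of these cells in the differences of the antioxidant genes was not tested.

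**Figure D2:**
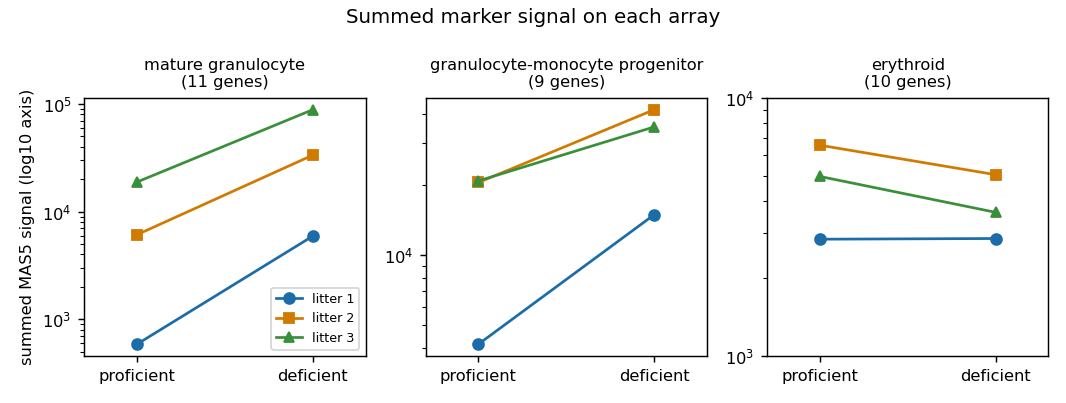
Summed signal (y axis, logarithmic) of 3 fixed marker lists in the proficient and deficient sample of each litter, joined by a line. The granulocyte sums are higher in the deficient sample of every litter, with litter 1 lowest throughout, and the erythroid sum is not higher in litters 2 and 3.

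The array controls also differed between samples. The 3′ minus 5′ difference of the Gapdh control, which grows as transcripts are shortened, was 4.71 in deficient and 3.64 in proficient cells of litter 1 on the log2 scale, 2.43 and 2.99 in litter 2, and 2.30 and 2.73 in litter 3. For Actb it was 4.97 and 4.05, 4.27 and 4.43, and 3.30 and 3.70. Both controls were thus higher in the deficient sample in litter 1 only. The mean log2 signal of the bioB, bioC, bioD and cre spike-ins was 12.8 and 11.6, 12.0 and 11.9, and 11.9 and 11.7, higher in the deficient sample of each litter, as was that of 18S ribosomal RNA. Their part in the differences below was not tested.

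Among the pentose phosphate genes, Pgd encodes 6-phosphogluconate dehydrogenase, which makes NADPH in the oxidative arm. Its signals were 1192, 2519.8 and 3323 in deficient cells of litters 1, 2 and 3, and 633, 1349 and 1617 in their litter mates. Each deficient sample stood close to the same ratio above its litter mate, 1.88, 1.87 and 2.05, although the groups overlapped because litter 1 was low in both genotypes. The log2 difference was 0.93 ± 0.22 (SE, n = 3 pairs; limma, adjusted p = 0.0502), just outside the threshold. It passed with median centring (0.0115), without a pseudocount (0.0386) and with a stricter filter (0.0382). It did not pass with quantile normalization (0.0988), without a variance trend (0.0565) or with averaged probe sets (0.0761). Nor did it pass without a filter on mean signal (0.942) or without a litter term (adjusted p = 0.9998 in limma).

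Tkt encodes transketolase, which links the non-oxidative arm to glycolysis. The deficient signals were 4395, 8629.6 and 8588 and the proficient ones 2605, 5683 and 6861. The ratios were 1.69, 1.52 and 1.25, so the deficient sample was higher in each litter, and the log2 difference of 0.56 ± 0.26 (SE) did not pass (limma, adjusted p = 0.405). Taldo1, transaldolase, measured 531, 498 and 721 against 237, 559 and 626. It was higher in litters 1 and 3 and lower in litter 2, with a log2 difference of 0.37 and a 95% interval from -0.14 to 0.87. The granulocyte sums were higher in the same samples. Pgd and Tkt, like those sums, were lowest in litter 1, which held for 14 of the 26 members tested and 22.2% of genes. The part of such cells in the differences of Pgd and Tkt was not tested.

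Of the other NADPH sources, Idh1, the cytosolic isocitrate dehydrogenase, measured 1471, 874 and 2052 in deficient and 1225, 374 and 968 in proficient cells. It was higher in deficient cells of all litters, by ratios of 1.20, 2.34 and 2.12, the smallest being that of litter 1. The log2 difference was 0.83 ± 0.24 (SE; limma, adjusted p = 0.12), and it passed with median centring only (0.0306). Me1, the cytosolic malic enzyme, was at the floor on 4 of 6 arrays and reached at most 47.4, so these data say little about it.

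In the glutathione system the member that rose was Gsr, glutathione reductase, the enzyme that spends NADPH to restore reduced glutathione. Its signals were 2516, 857 and 1488 in deficient cells and 1012, 480 and 625 in proficient cells of litters 1, 2 and 3. The deficient sample was 2.48, 1.78 and 2.38 times as bright as its litter mate, and the groups overlapped because litter 1 was bright in both genotypes. The log2 difference was 1.10 ± 0.22 (SE, n = 3 pairs; limma, adjusted p = 0.0154). In both genotypes Gsr was brightest in litter 1, where the granulocyte sums were lowest. The ratio of the mature granulocyte sum, 10.1, was largest in that litter, as was the ratio of Gsr. The part of such cells in the difference of Gsr was not tested. The call was lost without a litter term (adjusted p = 0.9998), without a filter on mean signal (0.942), when its 2 probe sets were averaged (0.0586), and without litter 1 (0.718), litter 2 (0.687) or litter 3 (0.581), where no probe set at all passed. The log2 difference itself was between 1.005 and 1.25 with a litter left out.

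Several genes that use glutathione had higher signals in deficient cells but did not pass. Mgst1, a membrane-bound glutathione transferase, measured 214, 613 and 876 against 155, 286 and 488, which gives ratios of 1.38, 2.14 and 1.80 and a log2 difference of 0.74 ± 0.23 (SE; limma, adjusted p = 0.151). With median centring it passed (0.0489). Glrx, glutaredoxin, measured 111, 173 and 254 against 83.5, 118 and 119. Its log2 difference was 0.57 ± 0.24 (SE; limma, adjusted p = 0.355), with the largest ratio, 2.12, in litter 3. Gstm1, a cytosolic transferase, measured 83.0, 165 and 206 against 53.9, 125 and 111, a log2 difference of 0.50 ± 0.24 (SE; limma, adjusted p = 0.426). These 3 genes were dimmest in litter 1 in both genotypes, as were the granulocyte sums. The part of such cells in their differences was not tested.

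**Figure D3:**
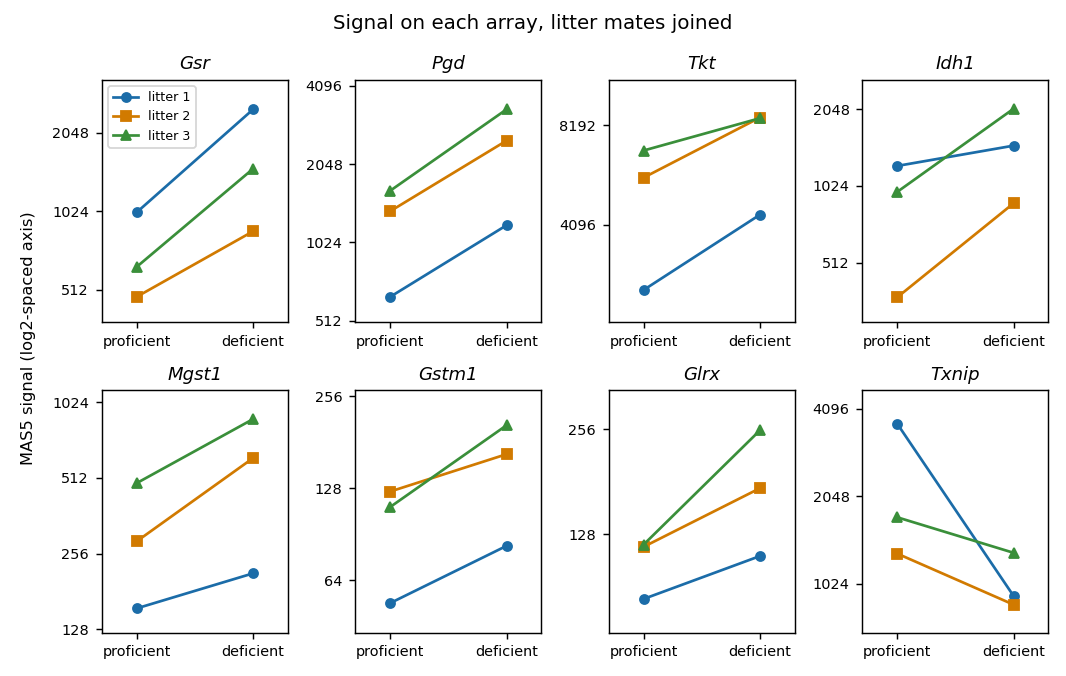
Signal (y axis, log2 spacing, own range per gene) of 8 members in the proficient and deficient sample of each litter, joined by a line. All lines rise from left to right except those of Txnip; Gsr is brightest in litter 1, while Pgd, Tkt, Mgst1, Gstm1 and Glrx are dimmest there.

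The glutathione peroxidases did not pass. Gpx1, which removes hydrogen peroxide, measured 3008, 12067 and 8768 in deficient cells and 1955, 10147 and 7804 in proficient cells, with ratios of 1.54, 1.19 and 1.12 and a log2 difference of 0.34 (95% interval from -0.19 to 0.88). Litters differed far more than genotypes for this gene. Gpx4, which protects membrane lipids from peroxidation, measured 543, 2435 and 1190.3 against 223, 2191 and 1537, and was higher in litters 1 and 2 and lower in litter 3. By their brightest probe sets, the genes of glutathione synthesis had differences of the same sign as each other in every litter. The sign differed between litters, and none passed. Gclc and Gclm, the subunits of the rate-limiting ligase, and Gss, glutathione synthetase, were each higher in litters 1 and 3 and lower in litter 2, with log2 differences of 0.13, 0.15 and 0.08. The second probe set of Gclc was lower in litters 1 and 2, and that of Gss was lower in all 3. Slc7a11, which imports cystine for glutathione synthesis, was at the floor on all 6 arrays by both of its probe sets.

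In the thioredoxin system the widest difference was that of Txnip, a protein that binds and inhibits thioredoxin and restrains glucose uptake. Its signals were 929.9, 868 and 1308 in deficient cells and 3638, 1299.9 and 1733 in proficient cells. All deficient samples were below their litter mates, at ratios of 0.26, 0.67 and 0.75, but the spread was wide and the proficient sample of litter 1 stood far above the rest. The log2 difference was -0.97 ± 0.27 (SE; limma, adjusted p = 0.105) and did not pass; the 95% interval ran from -1.52 to -0.41. Without litter 1 the 2 remaining litters had log2 differences of -0.57 and -0.40.

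Txn1, thioredoxin, measured 4760, 12436 and 8867 against 2503, 10999 and 8266. Its ratio was 1.90 in litter 1 and only 1.13 and 1.07 in the others, and the log2 difference was 0.40 (95% interval from -0.16 to 0.96). Txnrd1, thioredoxin reductase, measured 969, 128 and 397 against 653, 105 and 300.5. It was higher in each deficient sample, by ratios of 1.48, 1.23 and 1.32, yet the difference of 0.38 ± 0.22 (SE) was small beside that between litters (limma, adjusted p = 0.538). A dimmer probe set of Txnrd1 was lower in the deficient sample of litter 2, at 42.2 against 48.2, and another was at the floor on all arrays. Of the peroxiredoxins, the peroxidases that thioredoxin serves, Prdx2, Prdx3 and Prdx4 had log2 differences of -0.05, -0.21 and 0.09, and each changed sign between litters. All 3 were lower in the deficient sample of litter 3 (Prdx2 1979 against 3159, Prdx3 278 against 372, Prdx4 916 against 1127) and higher in that of litter 1. Srxn1, sulfiredoxin, which repairs overoxidised peroxiredoxins, reached at most 43.0.

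Superoxide dismutases turn superoxide into hydrogen peroxide, which catalase then breaks down. Sod1, the cytosolic form, measured 9322, 13272 and 12692 in deficient and 5474, 11883 and 13860.3 in proficient cells. The ratios were 1.70, 1.12 and 0.92, above 1 in litters 1 and 2 and below 1 in litter 3, and the log2 difference was 0.27 (95% interval from -0.32 to 0.86). By another bright probe set Sod1 was higher in all 3 litters, at 6018, 9364 and 9885 against 4162, 6824 and 9645. Its log2 difference there was 0.34, and those of its dimmer tested probe sets were -0.16 and -0.16. Sod2, the mitochondrial form, and Cat, catalase, had log2 differences of -0.04 and 0.09 by their brightest probe sets, each with litters on either side of 0. The intervals reached from -0.52 to 0.43 for Sod2 and from -0.41 to 0.59 for Cat.

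The NRF2 group gave no common direction. Nfe2l2, which encodes NRF2, measured 221, 272 and 336 in deficient and 277, 286 and 334 in proficient cells, a log2 difference of -0.11 with a 95% interval from -0.57 to 0.35. Keap1, its inhibitor, measured 295, 212 and 303 against 221, 293 and 321. Nqo1, a quinone reductase widely used as a marker of NRF2 activity, measured 212, 77.6 and 57.4 against 97.0, 103 and 96.0. Its proficient samples were nearly equal, whereas the deficient sample was 2.19 times as bright as its litter mate in litter 1 and 0.75 and 0.60 times as bright in litters 2 and 3. Hmox1, heme oxygenase, never left the floor. The transcript levels of Nfe2l2 and Keap1 do not measure the activity of the NRF2 protein.

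Litter set the level of many members more than genotype did. Over the 26 members tested, litter took a median of 75.01% of the sum of squares of the log2 values and genotype 8.88%. The medians over all probe sets tested were 62.1% and 9.40%. Litter has more levels (3) than genotype, so it tends to take the larger share even where neither matters. For 14 members both litter 1 arrays were below the other 4, against 18.1% of all probe sets tested, or 22.2% of genes by their brightest probe set. They were Pgd, Tkt, Gclm, Gss, Glrx, Gpx1, Gpx4, Gstm1, Mgst1, Txn1, Prdx2, Prdx4, Sod1 and Sod2. Among members tested, Txnrd1 and Cat were the ones with both litter 1 arrays above the other 4 (19% of probe sets). The litter share was lowest for Txnip, at 22.8%, and highest for Txnrd1, at 96.2%; genotype took 51.5% for Gsr, 51.3% for Txnip, 43.9% for Glrx and 38.2% for Pgd. Litter 1 was also the older litter and had the larger Gapdh 3′ minus 5′ differences, and its Xist signals of 114 and 166, against at least 5087 in the other litters, also set it apart. Age, sex, RNA quality and litter cannot be told apart here.

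**Figure D4:**
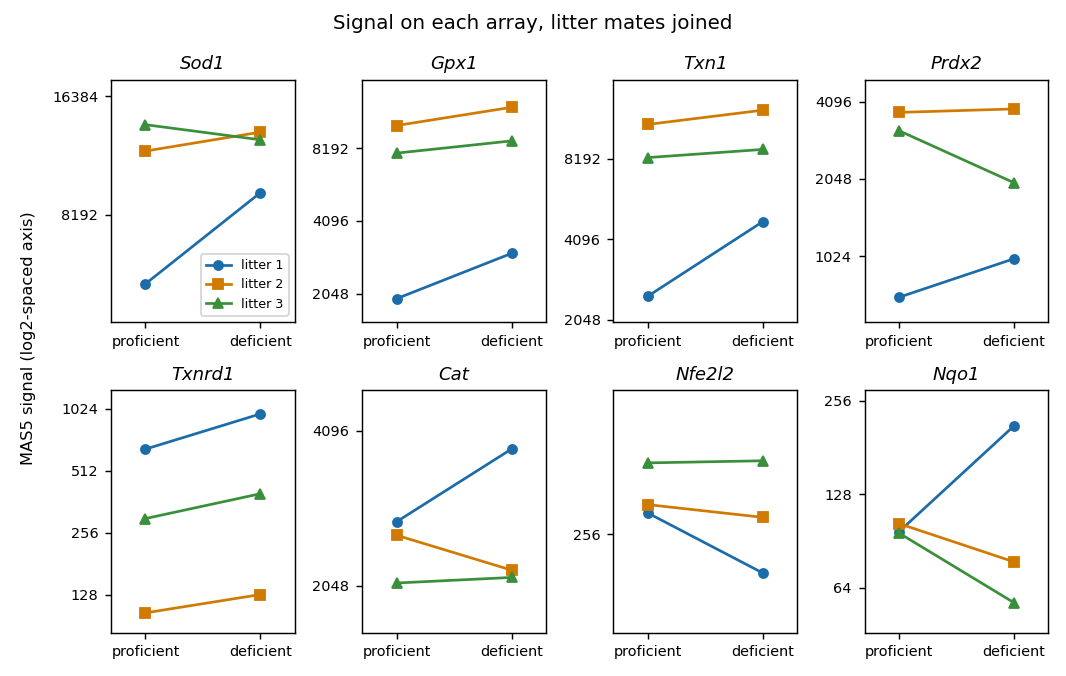
Signal (y axis, log2 spacing, own range per gene) of 8 further members in the proficient and deficient sample of each litter, joined by a line. Sod1, Gpx1, Txn1 and Prdx2 are dimmest in both samples of litter 1, Txnrd1 and Cat are brightest there, and Nqo1 goes up in litter 1 and down in litters 2 and 3.

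Other probe sets of the same genes were compared with the brightest one. The 29 members had 68 probe sets in all, of which 52 were tested, and 16 members had at least 1 tested probe set beside the brightest. Of these 26 further probe sets 16 had a log2 difference of the same sign as the brightest, and none passed. Pgd was higher in every litter by all 4 of its probe sets, with log2 differences of 0.93, 0.90, 0.75 and 0.47. Idh1 was higher in every litter by both of its probe sets, at 0.83 and 0.58. Gstm1 likewise had 4 probe sets at 0.50, 0.47, 0.69 and 0.50, and by the last 2 the groups did not overlap. The last was at the floor in all proficient samples and at least 1.82-fold higher in deficient ones. Probes of this gene may also bind transcripts of related transferases. The second probe set of Gsr was at the floor in all proficient samples and measured 30, 54.0 and 88.8 in deficient ones, so litter 1 showed no measurable difference there. Tkt had 2 probe sets above 0 and one close to the floor at -0.12, and Gss had probe sets of opposite sign, at 0.08 and -0.46. The second probe set of Cat was lower in all 3 litters, at a log2 difference of -0.26. It measured 243, 223 and 254 in deficient and 348, 267 and 269 in proficient samples, so its groups did not overlap. The single probe set of Taldo1 and of Gpx1 allows no such comparison.

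**Figure D5:**
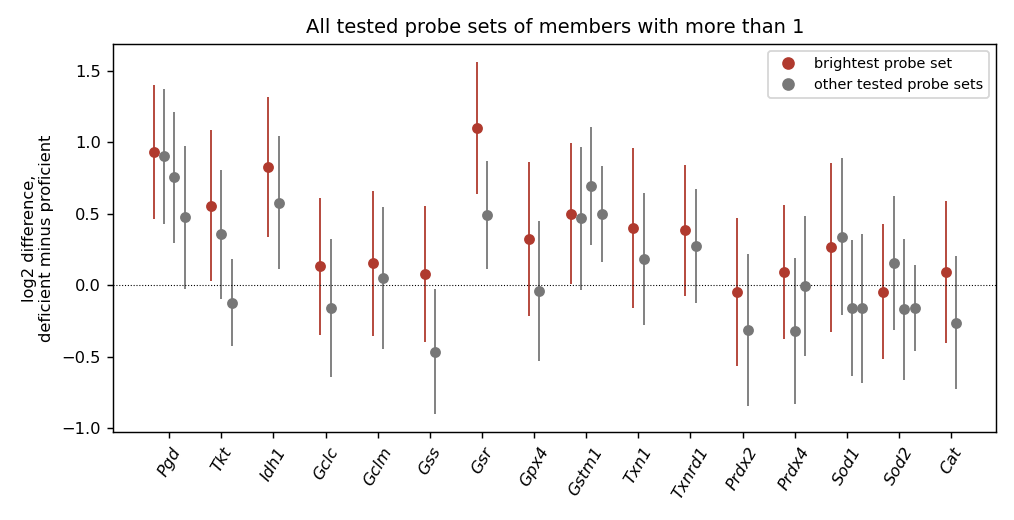
Log2 difference between deficient and proficient samples (y axis) for every tested probe set of the 16 members with more than 1, with 95% intervals from limma with litter as a block; red marks the brightest probe set and grey the others. All probe sets of Pgd, Idh1, Gsr and Gstm1 lie above 0, whereas those of Gclc, Gss, Gpx4, Sod1, Sod2 and Cat lie on either side of it.

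Other genes of the same pathways were taken from a list made by function, also with earlier results of these data known. Of 93 listed genes 88 were measured and 73 tested, 1 passed as higher and 0 as lower (limma with litter as a block); at an unadjusted p under 0.05 there were 3 higher and 5 lower. Over all genes taken by their brightest probe set, 0.514% passed as higher and 0.597% as lower, and 4.69% and 7.42% had an unadjusted p under 0.05, which is close to the shares of the 73 pathway genes at an unadjusted p. The median log2 difference was 0.00. The gene that rose was Mgst2, a microsomal glutathione transferase that can also make leukotriene C4, at 196, 1582 and 2141 in deficient and 85.7, 717 and 636 in proficient cells. Its ratios were 2.29, 2.21 and 3.36, and the log2 difference was 1.26 ± 0.23 (SE; limma, adjusted p = 0.00661). Like Mgst1 it was dimmest in litter 1, and both granulocyte sums were also higher in the deficient sample of each litter. In litters 2 and 3 the mature granulocyte sum was 33515 and 88588 in deficient and 6106 and 18839 in proficient samples. The granulocyte-monocyte progenitor sum was 41858 and 35322 in deficient and 20418 and 20746 in proficient samples. The part of such cells in the difference of Mgst2 was not tested.

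Outside the threshold, Msrb1, a selenium-containing methionine sulfoxide reductase, measured 83.0, 212 and 278 against 30, 138 and 130 (log2 difference 0.79; limma, adjusted p = 0.143). Gpx3, a secreted peroxidase, was at the floor in all proficient samples and at 56.0, 74.3 and 39.6 in deficient ones, at least 1.83-fold higher (adjusted p = 0.211 in limma). Rpia, ribose-5-phosphate isomerase of the pentose phosphate pathway, measured 1198, 899 and 1212 against 684, 757 and 944. Lower in all 3 litters were Txnrd2, the mitochondrial thioredoxin reductase, at 32.5, 206 and 117 against 52.5, 309 and 206, Txnrd3, a related reductase, at 54.5, 54.6 and 83.9 against 67.5, 178 and 104, and the transferase Gstk1 at 72.0, 78.9 and 51.8 against 103, 139 and 106. For these reductases the direction was opposite to that of Txnrd1, and none of the 3 reductase genes passed. The 12 further pentose phosphate and NADPH genes had a median log2 difference of 0.20, with 8 above and 3 below 0, and none passed. The 35 further glutathione genes had a median of 0.00, the 18 further thioredoxin and methionine sulfoxide genes one of -0.005, and the 23 further NRF2 pathway genes one of -0.06, with 0 called in the last 2 groups.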

How the data were processed

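The authors deposited 1 signal intensity per probe set and array on a linear scale; the submitters' processing notes name MAS5 without a version; RNA was amplified in a pair of linear rounds, per the labels' protocols. The floor of 30 is seen in the values, and the step that set it is not stated. A floor hides differences among dim genes, and amplification favours 3′ ends. Of the probe sets, 64 controls were left out and 34945 carried 1 symbol in the platform annotation; Entrez identifiers of the 29 measured members matched RefSeq symbols of GRCm38.p6.

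Samples were grouped by the titles, which number litter mates alike. As a check of the pairing, the deviations from the group means correlated between litter mates with r = 0.77, 0.67 and 0.46 in litters 1, 2 and 3. Signals were transformed as log2(signal + 30), which understates the change of dim genes, and the 22519 probe sets with a mean signal at or above the median, 32.6, were fitted with limma 3.58.1 in R 4.3.3 (eBayes with a variance trend) with genotype and litter as terms and Benjamini-Hochberg adjustment at 0.05. In simulated arrays of these 22519 probe sets, the blocked fit recovered 64% of 2-fold and 100% of 4-fold changes placed in brighter probe sets, with 12 false calls. A fit without a litter term recovered 0% and 7% of them.

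Members described by array were those that passed, those whose groups did not overlap, those with 1 direction in all litters and a mean log2 difference of at least 0.3 in size, the brightest of each subgroup, and the NRF2 group. Of the other pathway genes, those that passed and the 3 largest per direction with 1 direction in all litters were named. The members, lists, rule and tests were chosen with earlier results of these data known. Alternatives were no litter term, other scalings, pseudocount, filters and variance model, averaged probe sets, and litters left out.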

Additional observations from a re-analysis of the deposited data

How the results depend on the processing

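The blocked fit called 188 probe sets, of which 71 were higher and 117 lower, with 1 member and 1 other pathway gene among them. Without the block all of these counts were 0, and so they were without a filter on mean signal, which adds probe sets at the floor on every array, and without litter 1, 2 or 3 (0 to 0); leaving out 1 array of a litter under the block equals leaving out the litter. Median centring gave 332 probe sets, 193 higher and 139 lower, with 4 members (Gsr, Pgd, Idh1 and Mgst1) and 2 pathway genes. With quantile normalization 75 were lower, and without a variance trend 114 passed and 65 were lower. The members passing were Gsr and Pgd without a pseudocount (2) and with the stricter filter (2), and 0 when a gene's probe sets were averaged. The causes were not tested. With a litter left out, the median log2 difference ran from 0.00 to 0.28 for all members, from 0.46 to 0.67 for the pentose phosphate genes, from 0.10 to 0.45 for the glutathione genes and from -0.03 to 0.26 for the thioredoxin genes; under the other alternatives it moved by less than the spread of the litter medians. Members near 0 turned sign: Nqo1 to -0.0072 without a pseudocount, Cat to -0.039 and Keap1 to 0.0043 with quantile normalization, and Prdx2 to 0.044, Sod2 to 0.046 and Keap1 to 0.049 with median centring. Averaged probe sets gave -0.012 for Gclc, -0.19 for Gss, -0.078 for Prdx4 and -0.084 for Cat. With a litter left out, signs also turned; the lowest and highest values were -0.023 and 0.27 for Gclc, -0.14 and 0.49 for Gclm, -0.011 and 0.15 for Gss, -0.11 and 0.66 for Gpx4, -0.094 and 0.25 for Cat, -0.42 and 0.31 for Nqo1, -0.035 and 0.28 for Prdx4, -0.25 and 0.15 for Keap1, -0.31 and 0.26 for Prdx2, and -0.20 and 0.17 for Sod2. Signal near the floor limits what can be said of Hmox1, Slc7a11, Srxn1 and Me1.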
